A study of Homo sapiens with 18 samples.

Results

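Catecholamines are made from tyrosine in a short chain of enzymes. Tyrosine hydroxylase (TH) makes DOPA and sets the rate, aromatic L-amino acid decarboxylase (DDC) turns DOPA into dopamine, dopamine beta-hydroxylase (DBH) turns dopamine into noradrenaline inside the vesicle, and phenylethanolamine N-methyltransferase (PNMT) turns noradrenaline into adrenaline. GTP cyclohydrolase (GCH1) starts the synthesis of tetrahydrobiopterin, the cofactor of TH. The vesicular monoamine transporters VMAT1 (SLC18A1) and VMAT2 (SLC18A2) load the amines into granules and vesicles, and the noradrenaline transporter (SLC6A2) and the dopamine transporter (SLC6A3) take them back up at the plasma membrane. Neuroblastoma arises from the sympathoadrenal lineage, whose sympathetic neurons release noradrenaline.

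These 9 genes were followed in BE(2)-m17 cells, a human neuroblastoma line, with and without overexpression of ABCC1, an ATP-driven export pump. The genes were selected by symbol, and 9 of 9 were found among the 57905 Ensembl genes counted. Of the 18 RNA-seq libraries, 6 belong to each of 3 experiments, shared evenly between the ABCC1 line and the empty vector line (Puro), so that n = 3 per line and experiment. Every line carried APP, the amyloid precursor protein, from a hygromycin-selected transposon (pSBbi-Hyg-APP). The ABCC1 line carried in addition a codon-optimized ABCC1 cDNA in pSBbi-Pur, the control line pSBbi-Pur without insert. Both constructs were inserted by the Sleeping Beauty transposase SB100X and selected with the drugs, which were left out when cells were plated for RNA. The vector rather than a cell type drives them, and in each experiment a single line stands for each construct. Replicates were plated at weekly intervals and lysed on day 4, so the p-values measure the spread between platings of a line and not between independently made lines. The labels only number the experiments; from the order in which the paper describes its repeats, the cells of the second were read as thawed stocks of the first lines and those of the third as lines transfected anew. An mRNA kit was used for the first experiment and a total RNA kit for the others, so levels are compared within an experiment except where a separate comparison is named.

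Libraries held 8866994 to 57937653 assigned read pairs, and the third experiment was the shallowest. Exogenous ABCC1 had between 51035 and 594404 counts in the ABCC1 libraries and between 0 and 15 in the Puro libraries, so each library matched its label. Protein-coding genes took 96.0% to 97.0% of the counts in the first experiment and 71.8% to 80.3% in the others. Reads on 350 olfactory receptor genes, which neuroblastoma cells are not known to use, served as the background level of a silent gene. On the scale of CPM, counts scaled to library size, per kilobase of exon this level was 0.00511 in the Puro and 0.00411 in the ABCC1 libraries of the first experiment. It was 0.580 ± 0.0881 and 0.304 ± 0.149 in the second and 1.58 ± 0.0906 and 1.26 ± 0.157 in the third (mean ± SD, n = 3 each), so in the repeats background fell together with the change of line. The members' results were therefore also computed with this background subtracted and, for the comparisons of ABCC1 with Puro, with it as a covariate of the fit. In bulk RNA, fewer cells of a type and less RNA per cell cannot be told apart.

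The cells were first checked against markers. All 12 sympathoadrenal markers, among them the transcription factors PHOX2A, HAND2 and GATA3 and the granule protein CHGA, lay above the olfactory receptor level in every library. In the Puro libraries of the first experiment so did 9 of 10 mesenchymal and 3 of 5 Schwann cell markers. Lying above background thus does not by itself set the sympathoadrenal markers apart. Their summed level was 4686 to 5050 CPM per kilobase in the Puro libraries of the first experiment, against 119 to 130 for 10 mesenchymal markers and 1.55 to 1.88 for 5 Schwann cell markers. PHOX2A, a regulator of the noradrenergic fate, carried 243 CPM per kilobase there.

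The Puro cells contained transcripts for every step to noradrenaline. Levels between genes are given as CPM per kilobase of exon, averaged over the 3 Puro libraries of an experiment. In the first experiment DBH was the most abundant member, at 139 ± 2.76, and only 189 of 19263 protein-coding genes (0.981%) lay above it. DDC followed at 51.0 and the noradrenaline transporter SLC6A2 at 41.6. GCH1 stood at 24.2 and TH at 16.7, while the vesicular transporters SLC18A1 and SLC18A2 lay close together at 8.67 and 7.55. The ranges of all neighbours in this order were separate. Among the members, the rate-limiting enzyme TH was thus the least abundant of the enzymes needed for noradrenaline. PNMT, at 0.262, and SLC6A3, at 0.0320, were far lower.

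Both repeats gave the same leading genes. DBH stood at 34.6 and DDC at 24.9 in the second experiment, and at 61.2 and 29.6 in the third, followed each time by SLC6A2, at 15.3 and 22.0. Neighbours that overlapped were SLC6A2 with GCH1, TH with SLC18A1 and PNMT with SLC6A3 in the second, and GCH1 with TH, TH with SLC18A1 and SLC6A3 with PNMT in the third experiment. PNMT and SLC6A3 looked higher in the repeats, but against a higher background. SLC6A3 was 1.58 times the olfactory receptor level in the second and 2.06 times in the third experiment, and PNMT 2.47 and 1.76 times, with 1 of the 3 Puro libraries of the third experiment below that level. The enzyme for adrenaline and the dopamine transporter thus lay close to the level of silent genes in the repeats. In the first experiment, with its lower background, PNMT was 51.3 and SLC6A3 6.26 times that level.

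**Figure D1:**
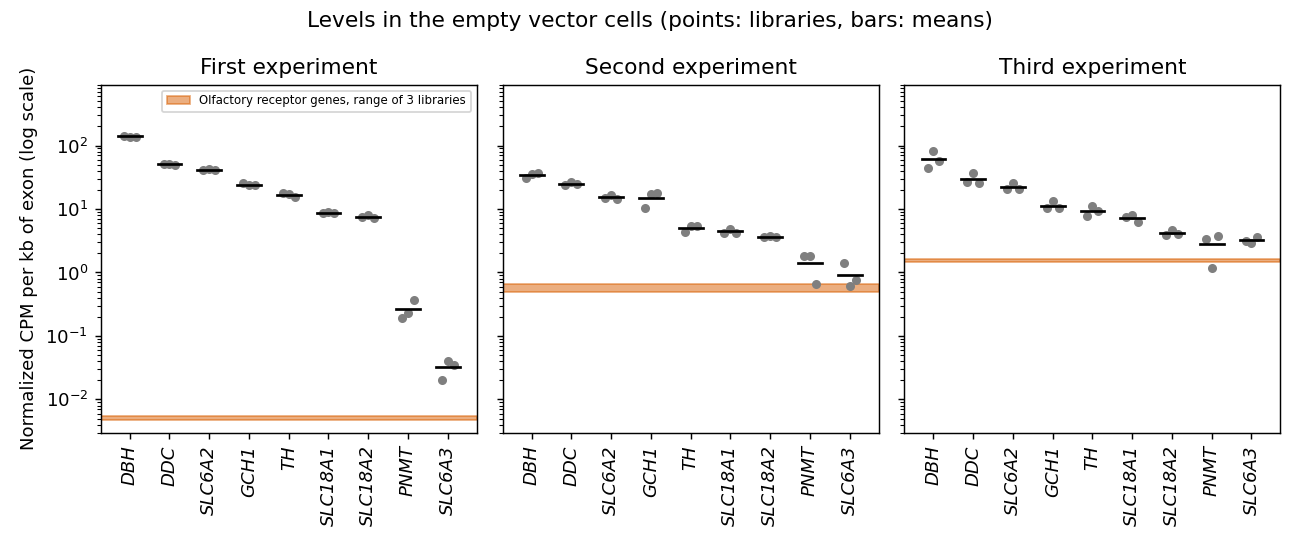
Levels of the 9 genes in the Puro libraries of each experiment, in CPM per kilobase of exon on a log axis; points are libraries, short bars group means, and the shaded band the range of the olfactory receptor level over the 3 libraries. Genes stand in the order of the first experiment. DBH, DDC and SLC6A2 lead in each panel, while PNMT and SLC6A3 lie lowest; in the second experiment both have a library within the band, and in the third 1 PNMT library lies below it.

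Upstream sequences were available for 3 of the 9 genes in the RefSeq promoter table (GRCh38.p14), and those of DBH and SLC18A2 are shown because both genes were called in the common effect below, DBH lower and SLC18A2, in part of the alternatives, higher. Each is the 250 bases before the annotated start on the gene's own strand, DBH at chr9:133636113-133636362 and SLC18A2 at chr10:117240864-117241113, both on the plus strand. Capitals mark TGACG, the core letters of a cAMP response element, and ATTA, the core letters read by homeodomain proteins such as PHOX2A, on either strand.
DBH: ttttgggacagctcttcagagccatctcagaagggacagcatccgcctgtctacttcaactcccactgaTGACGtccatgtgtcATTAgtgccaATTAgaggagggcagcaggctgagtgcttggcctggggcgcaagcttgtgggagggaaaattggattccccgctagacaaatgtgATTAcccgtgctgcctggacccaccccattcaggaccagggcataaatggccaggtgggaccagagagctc
SLC18A2: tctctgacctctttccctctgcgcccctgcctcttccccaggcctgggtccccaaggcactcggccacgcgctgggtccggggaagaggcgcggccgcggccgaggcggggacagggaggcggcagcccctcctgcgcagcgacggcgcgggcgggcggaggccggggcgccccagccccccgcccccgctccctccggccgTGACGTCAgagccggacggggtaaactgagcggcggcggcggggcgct
The DBH window held TGACG once, beginning 181 bases before the start, and ATTA 3 times, beginning 166, 156 and 71 bases before it. The SLC18A2 window held no ATTA and TGACG on both strands of a single palindrome, beginning 48 bases before the start, so that the 2 matches overlap. Among 35116 promoter windows of this length, 21.2% had TGACG and 47.4% had ATTA on either strand, so neither match sets these genes apart. E-box letters, CANNTG, were found 3 times in the DBH and not in the SLC18A2 window, and GC-box letters, GGGCGG, 3 times in the SLC18A2 and not in the DBH window, with shares of 61.8% and 42.6% among all windows. These are matches of letters and not known binding sites in these cells.

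The question asked of each experiment was which transcripts differ between ABCC1-overexpressing and Puro cells. Over the experiments together TH, at the head of the chain, was higher with ABCC1, while DBH, which makes noradrenaline, and SLC18A1, the endocrine granule transporter, were lower. The signs of these 3 were the same in each experiment, but in the second only SLC18A1 passed the test. In a fit of all 18 libraries, in which the common effect is the mean of the 3 within-experiment log2 fold changes (log2FC), 4 of 9 members passed an adjusted p of 0.05, where 12.9% of the 46225 genes tested did. Of these, 2 were higher (TH, SLC18A2; background 9.39%) and 2 lower (DBH, SLC18A1; background 3.55%). Counted alone, the first experiment called 4 of the 8 members tested (background 37.6%), the second 1 of 9 (background 1.7%) and the third 4 of 9 (background 2.8%). The median log2FC of the members was -0.14 in the common effect, beside -0.08 over all genes tested. All adjusted p-values are from the quasi-likelihood test of edgeR with Benjamini-Hochberg adjustment over all genes.

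**Figure D2:**
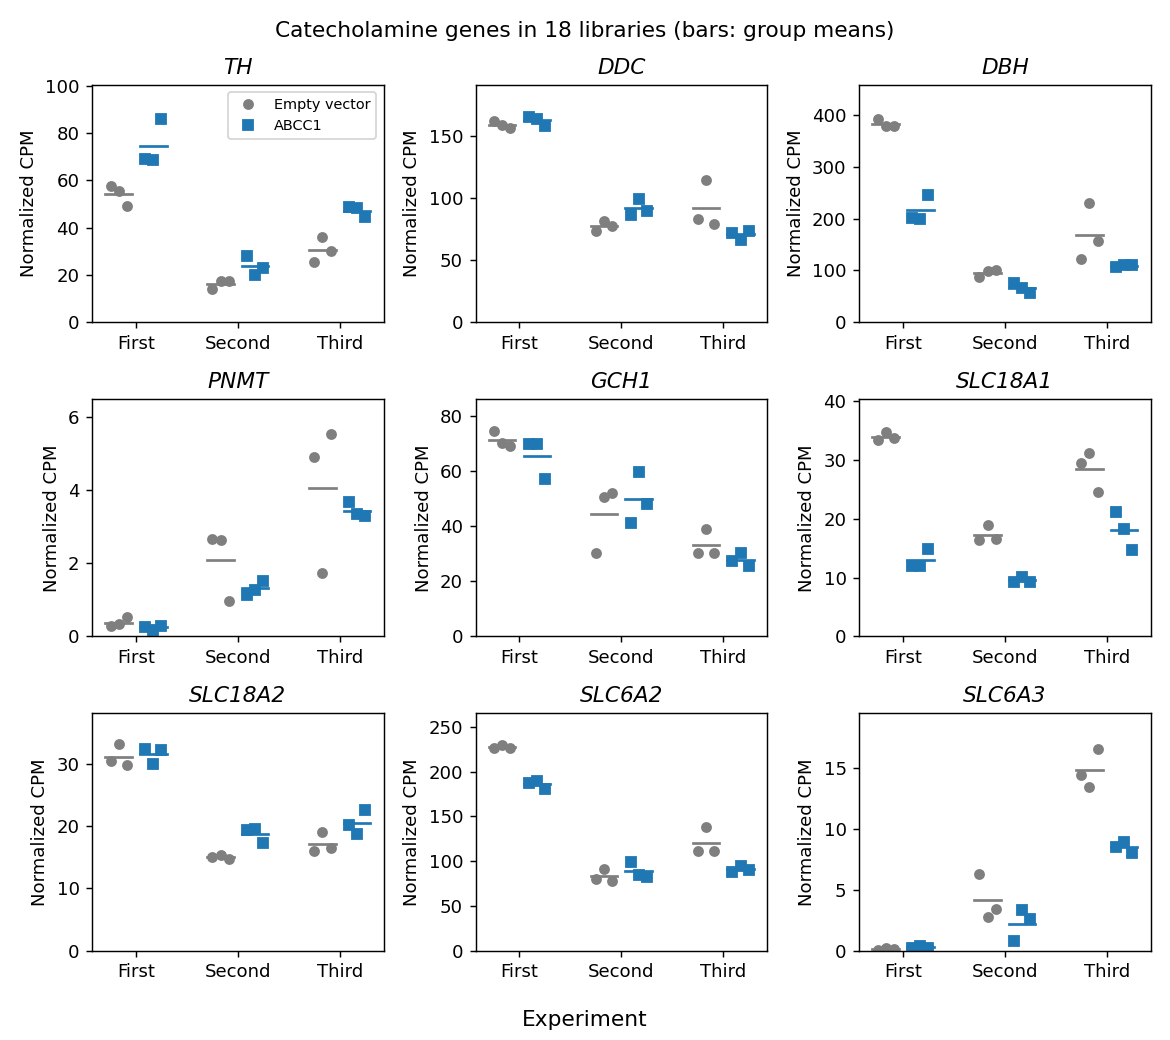
CPM of each gene in each of the 18 libraries, scaled within experiment, with Puro (grey circles) beside ABCC1 libraries (blue squares); short lines are group means and each panel has its own axis from 0. The groups of TH, DBH and SLC18A1 do not overlap in any experiment, with TH above in the ABCC1 libraries and the other 2 below.

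TH (ENSG00000180176) lies on the minus strand of chromosome 11, at 2185159 to 2193107 of GRCh37, with 3243 exonic bases. In the first experiment its level was 57.6, 55.5 and 49.4 CPM in Puro replicates 1 to 3 and 68.9, 68.5 and 86.1 CPM in the ABCC1 replicates. The second gave 14.2, 17.3 and 17.5 CPM in Puro and 28.0, 20.2 and 23.0 CPM in ABCC1. Values for the third were 25.4, 36.3 and 30.0 CPM in Puro and 48.8, 48.2 and 44.5 CPM in ABCC1. Every ABCC1 library was above every Puro library of its experiment, as 24.7%, 13.5% and 8.59% of all genes were in the respective experiments. The log2FC was 0.46 ± 0.093 (SE) in the first, 0.54 ± 0.17 in the second and 0.63 ± 0.16 in the third experiment, with adjusted p of 0.00395, 0.0879 and 0.0138. Genes called higher made up 17.9%, 1.25% and 2.03% of those tested. The common effect was 0.61 ± 0.094, a 1.52-fold higher level (adjusted p = 2.53e-06), and passed in each of the 25 alternatives run. The call of the third experiment was lost without Puro replicate 1 (0.54), Puro replicate 3 (0.64), ABCC1 replicate 2 (0.61) or ABCC1 replicate 3 (0.67) and with background as covariate (0.51, adjusted p = 0.130), and the call of the first was also lost with the covariate (0.51, adjusted p = 0.151). DESeq2 called the second (0.68, adjusted p = 0.0327). The mean background level came to 16.8% of the mean TH level in the Puro and 8.64% in the ABCC1 libraries of the third experiment. In the first experiment it came to only 0.0306% and 0.0179%.

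DDC (ENSG00000132437), on the minus strand of chromosome 7 at 50526134 to 50633154 with 3119 exonic bases, did not pass the test in any experiment. It had 162, 159 and 156 CPM in Puro and 166, 164 and 158 CPM in ABCC1 replicates of the first experiment, which overlap. Levels of 73.2, 81.7 and 77.7 CPM in Puro faced 86.5, 99.0 and 89.98 CPM in ABCC1 in the second, and 83.4, 115 and 79.1 CPM faced 71.9, 66.6 and 73.8 CPM in the third. The ABCC1 libraries thus lay all above in the second and all below in the third experiment, without overlap. The fitted values were 0.24 ± 0.16 (adjusted p = 0.379) and -0.38 ± 0.17 (adjusted p = 0.250), and the test of the difference between these 2 effects gave -0.57 ± 0.22 (adjusted p = 0.502). The common effect was 0.03 ± 0.090, with an interval of -0.15 to 0.21, so a common change of the size seen for TH lay outside it. DDC was called lower in the third experiment with background subtracted (-0.59, adjusted p = 0.0134) or as covariate (-0.58, adjusted p = 0.0392), while without Puro replicate 2 its value was -0.19.

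DBH (ENSG00000123454) lies on the plus strand of chromosome 9, at 136501482 to 136524466, with 2764 exonic bases. Puro replicates 1 to 3 of the first experiment had 392, 378 and 379 CPM, and the ABCC1 replicates 202, 200 and 246 CPM. Puro levels in the second were 86.5, 99.5 and 101 CPM against 76.2, 67.0 and 56.4 CPM with ABCC1. The third experiment had 122, 230 and 157 CPM in Puro and 107, 111 and 111 CPM in ABCC1 libraries, with Puro replicate 2 well above the others. That library was also the highest of its group for PHOX2A (349 CPM) and CHGA (4622 CPM). The same was true of all other members except PNMT and SLC6A3, for which it was the lowest. Protein-coding genes took 80.3% of its counts, against 75.2% and 73.9% in Puro replicates 1 and 3. The ABCC1 libraries were below all Puro libraries each time, as 25.7%, 16.4% and 10.9% of all genes were. The log2FC was -0.83 ± 0.073 in the first experiment, a 1.77-fold lower level (adjusted p = 1.89e-05), -0.53 ± 0.17 in the second (adjusted p = 0.0908) and -0.63 ± 0.19 in the third (adjusted p = 0.0454). Joined over the experiments the effect was -0.60 ± 0.10, or 1.51-fold lower (adjusted p = 2.34e-05), and it passed in all 25 alternatives.

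The call on DBH in the third experiment was lost without Puro replicate 2 (-0.33), Puro replicate 3 (-0.65) or any of ABCC1 replicates 1 to 3 (-0.56, -0.63 and -0.63), and with other size factors (RLE, -0.57, adjusted p = 0.119) or with no filter on low counts (-0.62, adjusted p = 0.0560), and was kept at -0.97 with background as covariate. The second experiment called DBH lower once background was subtracted (-0.79, adjusted p = 0.0439) or genes were required to have at least 10 counts in every library (-0.65, adjusted p = 0.0204). The antisense gene DBH-AS1 shares 118 of the exonic bases of DBH (4.27%), and since reads were counted without strand those of the shared stretch cannot be told apart. The same holds for 114 bases of DDC with DDC-AS1 (3.66%) and 105 of SLC18A2 with SLC18A2-AS1 (2.55%).

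PNMT (ENSG00000141744), a short gene on chromosome 17 at 37824234 to 37826728 with 1457 exonic bases on the plus strand, had 6 to 17 counts per library in the first experiment. Its level was 0.276 to 0.539 CPM in Puro and 0.186 to 0.293 CPM in ABCC1 libraries there. The repeats gave 0.963 to 2.65 CPM and 1.15 to 1.52 CPM, then 1.72 to 5.52 CPM and 3.30 to 3.67 CPM. The groups overlapped in each experiment. Its common effect was -0.42 ± 0.26, with an interval of -0.93 to 0.10 (adjusted p = 0.401). That interval holds both no change and a fall of the size seen for DBH. Background made up 40.5% and 33.6% of the mean PNMT level in Puro and ABCC1 libraries of the second experiment and 56.9% and 53.2% in the third.

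GCH1 (ENSG00000131979), on the minus strand of chromosome 14 at 55308726 to 55369570 with 2951 exonic bases, also showed overlapping groups throughout. Puro libraries had 69.2 to 74.6 CPM and ABCC1 libraries 57.1 to 70.2 CPM in the first experiment. Ranges of 30.3 to 52.2 CPM and 41.4 to 59.9 CPM were found in the second, and of 30.2 to 39.2 CPM and 25.7 to 30.5 CPM in the third. Its common effect was -0.01 ± 0.098 with an interval of -0.21 to 0.19, which leaves out a change of the size of that of TH or DBH.

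Of the vesicular transporters, SLC18A1 (ENSG00000036565, minus strand of chromosome 8, 20002366 to 20040717, 3910 exonic bases) had the lowest common effect of the members. In the first experiment it fell from 33.4, 34.7 and 33.7 CPM in Puro to 12.0, 11.9 and 14.9 CPM in ABCC1 libraries. Levels in the second were 16.4, 18.9 and 16.6 CPM in Puro and 9.21, 10.2 and 9.26 CPM in ABCC1. In the third they were 29.5, 31.2 and 24.6 CPM in Puro and 21.2, 18.2 and 14.7 CPM in ABCC1. No groups overlapped, and the test was passed in each experiment, with log2FC of -1.38 ± 0.084 (2.61-fold lower, adjusted p = 7.56e-07), -0.86 ± 0.17 (1.81-fold, adjusted p = 0.0179) and -0.66 ± 0.17 (1.58-fold, adjusted p = 0.0117). Only 0.458% of all genes were called lower in the second and 0.767% in the third experiment, against 19.7% in the first. Over all experiments the effect was -0.90 ± 0.090, or 1.87-fold lower (adjusted p = 5.40e-11), and held in all 25 alternatives.

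The calls on SLC18A1 in the repeats were each lost on leaving out any of 3 of the 6 libraries. In the second experiment it was lost without Puro replicate 2 (-0.78), Puro replicate 3 (-0.88) or ABCC1 replicate 2 (-0.89), and in the third without Puro replicate 1 (-0.60), ABCC1 replicate 2 (-0.66) or ABCC1 replicate 3 (-0.52). Both were also lost with background as covariate (-0.86, adjusted p = 0.509, and -0.54, adjusted p = 0.210). Background made up 13.1% and 12.4% of its mean level in Puro and ABCC1 libraries of the second and 21.8% and 27.2% in the third experiment.

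SLC18A2 (ENSG00000165646, plus strand of chromosome 10, 119000604 to 119038941, 4125 exonic bases) encodes the transporter more typical of neurons. It had 30.5, 33.1 and 29.9 CPM in Puro and 32.4, 30.0 and 32.2 CPM in ABCC1 libraries of the first experiment, which overlap. Puro libraries of the second had 15.1, 15.3 and 14.7 CPM and ABCC1 libraries 19.4, 19.6 and 17.4 CPM, without overlap. The third gave 16.02, 19.1 and 16.5 CPM in Puro and 20.3, 18.8 and 22.6 CPM in ABCC1. SLC18A2 did not pass in any single experiment, with log2FC of 0.02, 0.32 and 0.26 (adjusted p = 0.808, 0.258 and 0.504). The common effect was 0.26 ± 0.085, or 1.20-fold higher (adjusted p = 0.0270). This call rested on the settings: it was lost with RLE size factors (0.17, adjusted p = 0.130), under a filter of 10 counts in each library (0.08), with background subtracted (0.18) and with background as covariate (0.19). It was also lost without Puro replicate 1 (0.27), Puro replicate 3 (0.25), ABCC1 replicate 1 (0.25) or ABCC1 replicate 3 (0.25) of the first experiment, ABCC1 replicate 1 of the second (0.25), or Puro replicate 1 (0.26) or ABCC1 replicate 3 (0.24) of the third.

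**Figure D3:**
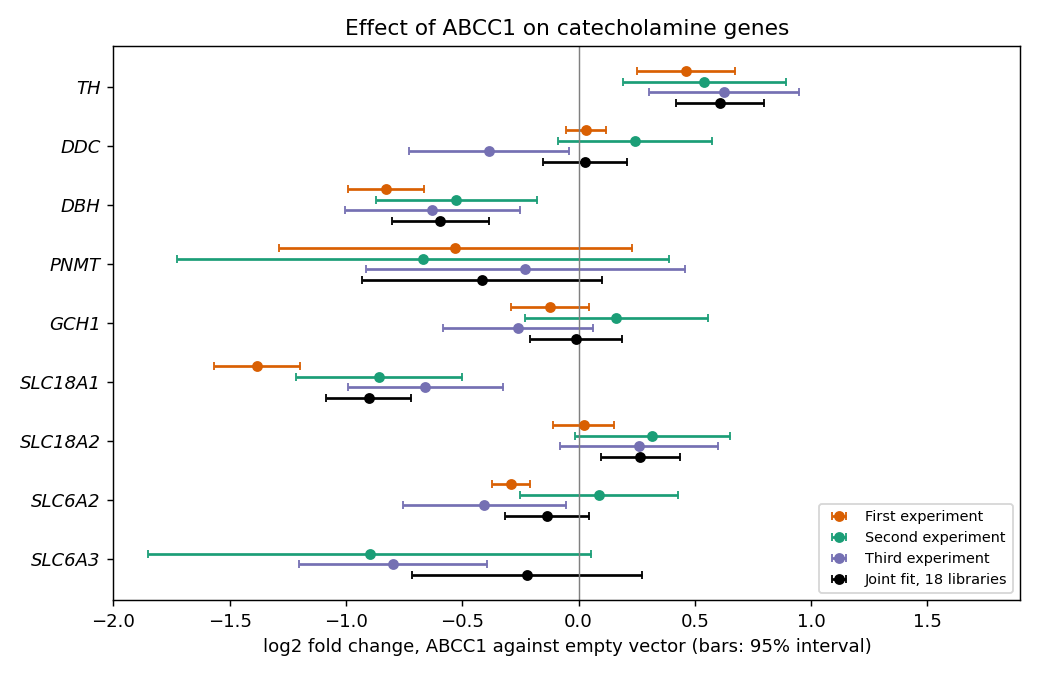
The log2FC of ABCC1 against Puro for each gene in each experiment and in the common effect, with 95% intervals that are not adjusted for the number of genes; SLC6A3 was not tested in the first experiment. TH lies right of 0 and DBH and SLC18A1 left of 0 in all 3 experiments, with intervals that do not reach 0, while those of GCH1 and PNMT reach across 0 each time.

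Since library scaling cancels in a ratio of 2 genes of the same library, the balance of the vesicular transporters was also computed as the share of SLC18A1 in the sum of SLC18A1 and SLC18A2 counts. Puro libraries of the first experiment had 52.3%, 51.2% and 53.0% SLC18A1 and ABCC1 libraries 27.1%, 28.4% and 31.6%. The second had 52.0%, 55.2% and 53.0% in Puro and 32.2%, 34.2% and 34.8% in ABCC1. In the third it went from 64.8%, 62.1% and 59.9% to 51.1%, 49.2% and 39.4%. Wilson 95% intervals, which cover counting error only, ran from 50.4% to 54.1% for Puro replicate 1 and from 25.4% to 28.8% for ABCC1 replicate 1 of the first experiment. The mean shares differed by -23.1, -19.7 and -15.7 percentage points, and no groups overlapped. With 3 libraries against 3 the exact two-sided permutation test gave p = 0.1 each time, the smallest it can give. In the second experiment this follows from the levels of both transporters, which each did not overlap. Background subtraction, an alternative added after the data had been seen, brought the differences of the repeats to -21.8 and -21.7 points.

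The ratio of DBH to TH per kilobase, the last step over the first, was treated in the same way. It was 8.33 ± 0.589 in Puro and 3.41 ± 0.0456 in ABCC1 libraries of the first experiment. Means were 6.90 ± 0.219 and 3.32 ± 0.524 in the second and 6.39 ± 0.932 and 2.73 ± 0.182 in the third (SD, n = 3 each). Here the 3 experiments were close to each other, with differences of -1.29, -1.07 and -1.22 on the log2 scale. The groups did not overlap, and the exact two-sided permutation p was again 0.1. Both follow from the levels of TH and DBH, which each did not overlap, and give no separate support. The ratio rests on transcript counts and says nothing of enzyme activity or of the amines made.

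**Figure D4:**
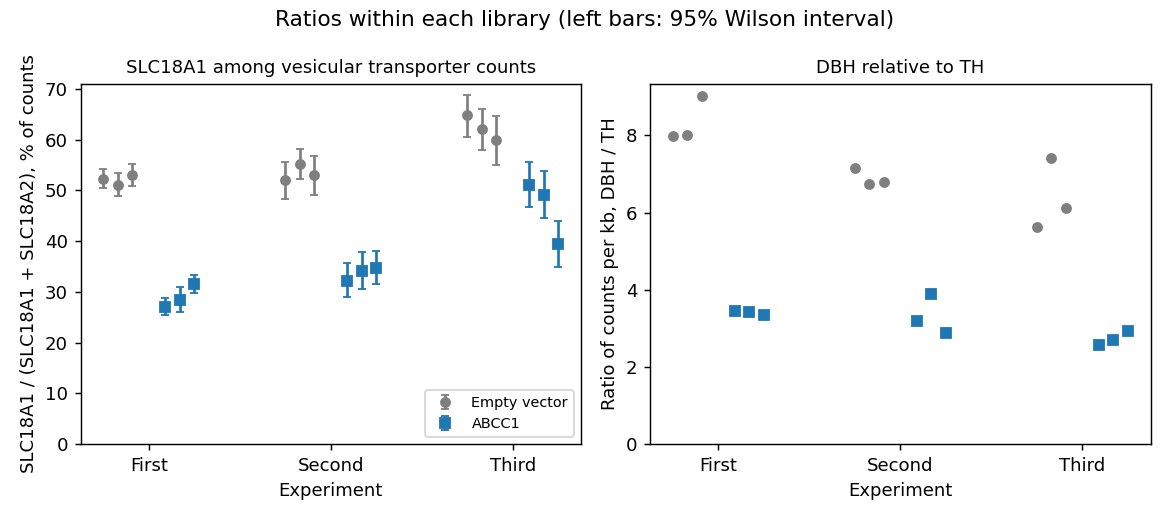
Share of SLC18A1 in the vesicular transporter counts, in percent, and ratio of DBH to TH per kilobase, for each library; grey circles are Puro and blue squares ABCC1 libraries, and the bars on the left are Wilson 95% intervals. In each experiment the 3 ABCC1 libraries lie below the 3 Puro libraries in both panels.

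At the plasma membrane, the noradrenaline transporter SLC6A2 (ENSG00000103546, plus strand of chromosome 16, 55689516 to 55740104, 5463 exonic bases) was lower with ABCC1 in the first experiment. Its levels there were 226, 229 and 226 CPM in Puro and 188, 189 and 181 CPM in ABCC1 libraries, close within each group and apart between them. This call was lost with background as covariate (-0.28, adjusted p = 0.0780), though background was only 0.0123% of the mean SLC6A2 level in Puro and 0.0121% in ABCC1 libraries there. The second gave 80.4, 91.7 and 78.3 CPM and 99.2, 84.4 and 82.4 CPM, which overlap. In the third, 111, 138 and 111 CPM in Puro stood above 87.5, 94.6 and 89.95 CPM in ABCC1. The log2FC was -0.29 ± 0.038 in the first (1.22-fold lower, adjusted p = 1.78e-04), 0.09 ± 0.16 in the second (adjusted p = 0.782) and -0.40 ± 0.18 in the third experiment (adjusted p = 0.229). The common effect was -0.14 ± 0.090 and did not pass (adjusted p = 0.442). It did with DESeq2 (-0.23, adjusted p = 1.86e-04), with RLE size factors (-0.23, adjusted p = 0.0195), under the filter of 10 counts in each library (-0.32) and with background subtracted (-0.35), so for this gene the call depended on scaling and filter. The third experiment alone called it lower with background subtracted (-0.62, adjusted p = 0.00417) or as covariate (-0.59, adjusted p = 0.0318).

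The dopamine transporter SLC6A3 (ENSG00000142319, minus strand of chromosome 5, 1392909 to 1445545, 4529 exonic bases) had 4 or 5 counts in the Puro and 11 to 13 in the ABCC1 libraries of the first experiment and was not tested there. Its ABCC1 libraries lay above there, at 0.195 to 0.372 CPM against 0.0920 to 0.184 CPM in Puro, but below in the third experiment. It had 6.28, 2.74 and 3.42 CPM in Puro and 0.764, 3.30 and 2.61 CPM in ABCC1 libraries of the second experiment. In the third it was lower with ABCC1, at 14.4, 13.4 and 16.6 CPM against 8.55, 8.94 and 8.01 CPM, with a log2FC of -0.80 ± 0.20 (adjusted p = 0.0119). The olfactory receptor level made up 48.5% of the mean SLC6A3 level in the Puro and 67.0% in the ABCC1 libraries of that experiment, and 63.4% and 61.8% in the second. The call was lost without Puro replicate 1 (-0.79), Puro replicate 3 (-0.68) or ABCC1 replicate 3 (-0.75) and with background as covariate (-0.69), while with background subtracted it was kept at -1.67, and the common effect was -0.22 ± 0.25 (adjusted p = 0.810).

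Counted over the members, groups did not overlap for 4 of the 8 members tested in the first (50.4% of all genes), 5 of 9 in the second (29.8%) and 6 of 9 in the third experiment (19.5%). Whether the effects differ between experiments was tested as an interaction in the joint fit. No member passed by edgeR, where 1.19% of all genes did, and 3 had an unadjusted p under 0.05, namely SLC18A1, SLC6A3 and DDC. DESeq2 called 2 members, DDC and SLC6A2. The effect on SLC18A1 was 0.70 ± 0.22 smaller in size in the third than in the first experiment, with an interval of 0.26 to 1.14 (adjusted p = 0.160), and 0.44 ± 0.22 smaller in the second than in the first (adjusted p = 0.628). These pairwise tests called 1% of all genes for the third against the first, 1.1% for the second against the first and 0.0238% for the third against the second.

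The Puro cells of both repeats shared a library kit and were compared with each other to see how much the genes differ without ABCC1. This comparison called 3 of 9 members, where 19.4% of 37283 genes were called. In the third experiment 1 of them was higher (background 5.77%) and 2 were lower (background 13.6%). GCH1 was at 40.3, 69.7 and 75.6 CPM in the second and 25.0, 31.3 and 24.7 CPM in the third experiment on the scale of this comparison, a log2FC of -1.20 ± 0.21 or 2.29-fold lower (adjusted p = 6.02e-05). SLC18A2 went from 20.1, 20.98 and 21.3 CPM to 13.1, 15.2 and 13.4 CPM, with a log2FC of -0.58 ± 0.18 (adjusted p = 0.0191). SLC6A3, at 8.34, 3.76 and 4.95 CPM against 11.8, 10.7 and 13.5 CPM, was higher by 1.08 ± 0.25 (adjusted p = 0.00154), beside a background that was itself higher in the third experiment. With background subtracted the call on GCH1 was made and those on SLC18A2 (-0.55) and SLC6A3 (2.00) were not, and SLC18A2 was also lost without Puro replicate 1 (-0.51) or Puro replicate 3 (-0.53) of the third experiment. DDC, at -0.52 (adjusted p = 0.0790), passed with DESeq2 (-0.62, adjusted p = 0.0153) and without Puro replicate 1 of the second (-0.59) or Puro replicate 2 of the third experiment (-0.70). TH, DBH, SLC18A1, SLC6A2 and PNMT were not called. Cells, depth and experiment changed together here and cannot be told apart.

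Other genes of the pathway were taken from a list of 47 genes, of which 46 were tested in the joint fit. The common effect called 5 higher and 6 lower, 11 of 46 against the 12.9% of all genes given above. The first experiment called 7 higher and 17 lower of 34 tested, where 17.9% and 19.7% of all genes were. The second called none by edgeR (11 had an unadjusted p under 0.05; 1.7% of all genes were called) and the third 1 in each direction (2.8% of all genes). In tetrahydrobiopterin synthesis and recycling, the first experiment called 1 of 7 higher and 4 lower, and the common effect 1 higher. It was SPR, sepiapterin reductase, which makes the final step to the cofactor, at 0.50 ± 0.10 (adjusted p = 2.95e-04), with 12.7 to 14.1 CPM in Puro and 18.2 to 20.6 CPM in ABCC1 libraries of the first experiment.

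Of the genes of catecholamine breakdown the first experiment called 2 higher and 2 lower of 6 tested, where 17.9% and 19.7% of all genes were. The common effect called 1 of 8, a share like the 12.9% of all genes, namely MAOA, a monoamine oxidase of the outer mitochondrial membrane, at 0.45 ± 0.10 (adjusted p = 0.00106). It had 12.6 to 13.1 CPM in Puro and 17.2 to 18.3 CPM in ABCC1 libraries of the first experiment. In the ascorbate group of 4, MOXD1, a relative of DBH whose substrate is not established, was lower at -0.81 ± 0.13 (adjusted p = 4.18e-06), from 7.04 to 7.54 CPM in Puro to 2.83 to 3.38 CPM in ABCC1 libraries of the first experiment. Neither repeat alone called a gene of this group, where 1.7% and 2.8% of all genes were called. MOXD1 was not above the olfactory receptor level in every ABCC1 library of the third experiment. None of 4 low-affinity amine transporters passed in the common effect, where 12.9% of all genes did. In the first experiment only 1 of them was tested, and it was called lower, where 19.7% of all genes were.

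Of 7 receptors tested in the first experiment, 3 were called higher and 3 lower, where 17.9% and 19.7% of all genes were. In the common effect 2 of 13 were higher and 3 lower, where 9.39% and 3.55% of all genes were. The higher ones were DRD2, the dopamine receptor that serves as an autoreceptor, at 0.53 ± 0.097 (adjusted p = 5.19e-05), and ADRA2C, an inhibitory noradrenaline receptor, at 0.41 ± 0.093 (adjusted p = 0.00107). DRD2 had 85.0 to 92.2 CPM in Puro and 104 to 132 CPM in ABCC1 libraries of the first experiment, 22.3 to 30.5 CPM and 34.4 to 40.5 CPM in the second, and 42.0 to 66.0 CPM and 63.0 to 82.8 CPM in the third, where the groups overlap. Lower were ADRA1B at -0.75 (adjusted p = 0.00106) and DRD5 at -0.66 (adjusted p = 0.0315), along with ADRA1A, which had at most 2 counts per library in the first experiment. In neither repeat did DRD5 lie above the olfactory receptor level in every Puro library.

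Among 10 transcription factors of catecholaminergic cells, 1 was higher and 6 were lower in the first experiment, where 17.9% and 19.7% of all genes were. In the common effect 1 was higher and 2 were lower, where 9.39% and 3.55% of all genes were. HAND2 was higher at 0.43 ± 0.11 (adjusted p = 0.00256), though it overlaps its antisense gene HAND2-AS1 and was at -0.00073 in the first experiment. PHOX2A was lower at -0.31 ± 0.11 (adjusted p = 0.0396). PHOX2A was called lower in the first (-0.48, adjusted p = 0.00746) and the third experiment (-0.68, adjusted p = 0.0327) and stood at 0.03 in the second, while the interaction test did not call it (adjusted p = 0.542).

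Markers of other transmitters were low in the first experiment. In its Puro libraries the summed CPM per kilobase was 0.0077 to 0.0657 for 3 GABAergic, 0.0294 to 0.0599 for 3 glutamatergic and 0.179 to 0.194 for 3 serotonergic genes. The 3 cholinergic genes had 1.63 to 2.58, most of it from the vesicular acetylcholine transporter SLC18A3, and the histaminergic HDC had 0.25 to 0.371. In the Puro libraries of the third experiment, where a single silent gene stood at 1.58, the sums were 4.72 to 6.13 for the GABAergic, 6.83 to 7.93 for the glutamatergic, 2.96 to 3.20 for the serotonergic and 8.69 to 11.7 for the cholinergic genes, and 1.995 to 2.69 for HDC. Those of the second were 1.69 to 3.14, 2.36 to 3.35, 1.25 to 1.70 and 4.69 to 5.44, with 0.28 to 0.838 for HDC, and a silent gene stood at 0.580. The common effect called 2 of the 13 genes lower, TPH2 (-0.59, adjusted p = 0.0323) and HDC, where 3.55% of all genes were lower, and none higher. No serotonergic gene, TPH2 included, lay above the olfactory receptor level in every Puro library of either repeat. Nor did HDC in the second experiment.

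The markers of cell types moved with the line as follows. In the first experiment the summed level of the sympathoadrenal markers was 4058 to 4564 CPM per kilobase in ABCC1 against 4686 to 5050 in Puro libraries. It was 3393 to 3789 against 2629 to 3309 in the second, and 3479 to 3920 against 3112 to 4645 in the third. The first experiment called 2 of the 12 higher and 7 lower, where 17.9% and 19.7% of all genes were called so. The second called none by edgeR (1.7% of all genes) and the third 1 lower (0.767% of all genes). The common effect called 3 higher (HAND2, MYCN, STMN2) and 2 lower, PHOX2A among them, where 9.39% and 3.55% of all genes were. Mesenchymal markers summed to 114 to 116 in ABCC1 and 119 to 130 in Puro libraries of the first experiment and to between 95.3 and 138 in the repeats, with COL1A2 at 0 in the ABCC1 libraries of the first. Of these markers the first experiment called 4 higher and 3 lower of 8 tested, where 37.6% of all genes were called, the second 1 higher of 10 and the third none by edgeR. The common effect called 2 of the 10 higher (NOTCH2, SNAI2) and 1 lower (FN1), against the same shares of all genes. Of the 5 Schwann cell markers none was called by edgeR in the common effect. The part of cell composition in the results on TH, DBH and SLC18A1 was not tested.

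The likeness of patterns was measured as Pearson's r of log2 CPM, centred within experiment, over the 18 libraries and 8795 protein-coding genes, and is a description, since the libraries share the line effect and their scaling. DBH and SLC18A1 had r = 0.87 with each other, TH and SLC18A2 0.72, TH and SLC18A1 -0.73, and TH and DBH -0.54. DDC was most like GCH1 among the members (0.64), close to its r with SLC6A2 (0.64). Outside the pathway, TH was most like KLHL21, TBC1D4 and JUNB (0.94 each), and DBH most like RANGAP1 (0.96), BMP7 (0.95) and SDC3 (0.94). SLC18A1 followed COL22A1 (0.97), FAIM2 (0.97) and TIMP3 (0.95), and SLC18A2 followed MTG2 (0.93), BCL2L1 (0.93) and IVD (0.92). SLC6A2 was nearest to CHGB (0.92), ALDH1L2 (0.92) and PROX1 (0.91), GCH1 to DDX1 (0.95), KIZ (0.94) and SMARCA1 (0.94), and DDC to ADD3 (0.87), IMPDH2 (0.86) and SERPINF1 (0.85).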

How the data were processed

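RNA-seq libraries of 3 experiments were analysed, 3 ABCC1 and 3 Puro libraries in each. The authors aligned the reads with STAR 2.7.3a to GRCh37 and counted read pairs on exons without regard to strand with featureCounts (Subread 2.0.0), as given in the submitters' processing notes and the paper. Counts were deposited without normalization. The labels name 2 library kits for the first experiment, and the one given in the paper was used.

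The fits used edgeR 4.0.16 with limma 3.58.1 under R 4.3.3, with TMM scaling, filterByExpr with a minimum count of 10, the robust quasi-likelihood test, two-sided, and Benjamini-Hochberg adjustment over all genes, with calls at an adjusted p of at most 0.05. The table holds 57905 Ensembl genes, of which 51996 have a symbol, with 92 spike-in and 6 vector rows, which were left out of counts of genes. Each experiment was fitted alone, all 18 libraries in a joint fit with 1 mean per group, and the Puro libraries of both repeats in a fit of their own. CPM is scaled within each experiment, and 0.5 was added before taking log2 in the likeness measure. Libraries of a group differed by a chi-square of 1.49 to 22.7 per degree of freedom, so none was counted as a repeat of another. Total counts of 8866994 to 57937653 read pairs limit the precision of low genes. Wilson intervals cover counting error only, while those of a log2FC carry the spread between libraries. Fold changes of the members have no floor applied, since none had a group at 0.

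The members and lists were chosen with earlier results of these data known. Named were all 9 members, up to 4 genes per role of the pathway, transmitter and marker lists by smallest adjusted p in the common effect, genes needed as markers, and the 3 most alike genes of each member with at least 10 CPM. On simulated counts, 200 genes drawn from those with many counts were changed by 0.75 on the log2 scale. The rates therefore do not cover low genes such as PNMT. The test recovered 98.5% of the changed genes among 16721 genes for the first, 43% among 31453 for the second and 67.5% among 34599 for the third experiment. It recovered 98% among 43912 for the common effect and 34% among 33855 for the comparison of Puro cells. False calls made up 7.94%, 4.44% and 8.16% of the calls in the respective experiments. They made up 3.45% for the common effect and 8.11% for the comparison of Puro cells. The alternatives were DESeq2 1.42.0, RLE size factors, other count filters, the replicate number as a block, background subtracted or as covariate, and each library left out. Single values of some listed genes are not reported here.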

Additional observations from a re-analysis of the deposited data

Results flagged for a closer look

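In 2 genes of the marker lists the effect of ABCC1 differed between experiments by the interaction test of edgeR with Benjamini-Hochberg adjustment. HDC, histidine decarboxylase, the enzyme that makes histamine, had an interaction adjusted p of 6.36e-07. It had 43, 40 and 41 counts in the Puro and 1, 0 and 1 in the ABCC1 libraries of the first experiment, 75, 76 and 23 against 14, 20 and 36 in the second, and 94, 87 and 102 against 93, 92 and 70 in the third. COL1A1, a collagen chain among the mesenchymal markers, had an interaction adjusted p of 0.00379. Its log2FC was 0.83 in the first, -0.83 in the second and -0.47 in the third experiment, from 35, 24 and 20 counts against 69, 30 and 107, then 396, 333 and 342 against 148, 177 and 355, then 408, 362 and 394 against 368, 275 and 304. The part of background reads, which differ between the experiments, in these differences was not tested.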

How the results depend on the processing

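The calls on TH, DBH and SLC18A1 in the common effect were made in all 25 alternatives, and those on DBH and SLC18A1 in the first experiment in all 13; the common effect called 3 to 5 members throughout. The first experiment called 2 members with background as covariate, where TH (0.51, adjusted p = 0.151) and SLC6A2 (-0.28, adjusted p = 0.0780) were lost. The second called 2 with DESeq2, 2 under a filter of 10 counts in each library, 2 with background subtracted, 0 with background as covariate, and 0 to 1 with a library left out. The third called 6 with background subtracted and 3 with DESeq2, RLE, no filter or the covariate, and 0 to 3 with a library left out. The comparison of Puro cells called 4 with DESeq2 and 1 with background subtracted, and DESeq2 called 2 in the interaction. Genes called in all went from 581 to 2848 with DESeq2, 34 with background subtracted and 9 with it as covariate in the second experiment, and with the covariate from 6382 to 1255 in the first and from 5980 to 2193 in the common effect. RLE moved the median log2FC of all genes in the second experiment from -0.19 to -0.08, and no member changed sign there. Background subtraction moved the difference in SLC18A1 share to -21.8 points in the second and -21.7 in the third experiment.

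Signs changed only where no call was made by either setting. In the second experiment these were SLC6A2 with the filter of 10 counts (-0.0369), background subtracted (-0.15) and as covariate (-0.12), GCH1 with background subtracted (-0.0485) and SLC6A3 with the covariate (0.51). In the third it was PNMT with the covariate (0.57). In the comparison of Puro cells they were DBH with DESeq2 (-0.0525) and RLE (-0.0340), SLC18A1 with the filter of 10 counts (0.0536) and background subtracted (0.27), and SLC6A2 with background subtracted (0.18). In the common effect they were DDC with DESeq2 (-0.0622), RLE (-0.0618), the filter of 10 counts (-0.15), background subtracted (-0.18) and the covariate (-0.0157), GCH1 with the block (0.0020) and SLC6A3 with the covariate (0.39). With a library left out, the ranges that crossed 0 were -0.0046 to 0.0666 for SLC18A2 in the first, -0.0255 to 0.30 for GCH1 in the second and -0.59 to 0.0772 for PNMT in the third experiment, -0.0817 to 0.0516 for GCH1 in the common effect and, between Puro cells, -0.23 to 0.26 for DBH, -0.12 to 0.0540 for SLC18A1, -0.13 to 0.55 for PNMT and -0.0039 to 0.27 for TH. The cause was not tested.

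Replicate numbers did not pair the libraries, as deviations of same-numbered libraries correlated at -0.28 to 0.13. With the replicate block 4, 1 and 4 members were called in the experiments, 4 in the common effect and 0 in the interaction, and TH stood at 0.61. PNMT and SLC6A3 had few counts in the first experiment and lay near background in the repeats.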
